A study of Homo sapiens with 18 samples.

Results

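SW620 is a human colorectal cancer cell line established from a lymph node metastasis, and RepSox is a compound that blocks the kinase ALK5, the TGF-β receptor of type I that TGFBR1 encodes. The response of SW620 to RepSox was read from 6 of the 18 RNA sequencing libraries of the series, chosen by cell line and treatment alone: 3 from cells labelled as given the vehicle DMSO and 3 from cells given RepSox at 10 µM for 24 h. Neither SW620 group had doxycycline (DOX) or a transgene named in the labels. The other 12 libraries come from HT-29 iZEB1, an HT-29 colorectal cancer line in which DOX switches on the transcription factor ZEB1. That line was given DMSO or RepSox at 10 µM for 24 h, each without DOX and with DOX at 1 µg per ml, in 3 libraries per group. For DOX the sources differ, with 24 h in the treatment protocol and 48 h in the design text. All cells were seeded at 600000 per well of a 6-well plate, and the sample labels give each of the 6 groups either DMSO or RepSox. The design text calls the cells without RepSox untreated, so the sources differ on the vehicle too, and DMSO below follows the sample labels. Of 60642 gene symbols in the deposited count table, 17147 had enough counts to be tested in SW620. The labels do not say whether the 3 replicates were separate cultures, so p-values measure only the spread among the libraries at hand, and that spread may be technical.

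TGF-β and activins bind a type II receptor kinase, which recruits and activates a type I receptor such as ALK5. The type I receptor phosphorylates SMAD2 and SMAD3, which act in the nucleus with SMAD4, while BMPs act through other type I receptors on SMAD1, SMAD5 and SMAD9. The pathway also signals through small GTPases and MAP kinases, and in epithelial cells it is known for growth arrest, matrix production and the epithelial-mesenchymal transition (EMT). Colorectal cancers often lose SMAD4 or TGFBR2.

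The SW620 libraries held 37.2 to 37.5 M counts each. Levels are given in CPM, counts scaled to a common library size with edgeR's TMM factors, and log2 fold changes below are RepSox over DMSO with their standard error (SE). Epithelial identity was checked on 13 colorectal epithelium markers: 10 were expressed well enough to be tested, with a summed level of 6531 to 6952 CPM in the DMSO libraries and 9627 to 10222 CPM in the RepSox libraries. KRT8, KRT18 and KRT19 make up most of that sum. Of the 10, 5 were called higher and 1 lower. The lower one, CDX2 (log2 -0.38), lost its call in the fit of all 18 libraries and without DMSO replicate 2, RepSox replicate 2 or RepSox replicate 3. CDX1 was at 0 in all 6, and KRT20 and CDH17 did not pass the filter. Among the markers of other cells, 5 of 13 fibroblast markers (COL1A2, COL3A1, PDGFRA, FAP and POSTN) were at 0 in all 6 libraries, and so were CD3E, MS4A1 and TYROBP of 14 leukocyte markers. The fibroblast markers summed to 66.9 to 72.4 CPM in DMSO and 65 to 68.2 CPM in RepSox, and 4 of the 7 tested were called lower, each with a mean below 8 CPM. The 4 became 2 in the fit of all 18 libraries and 1 without RepSox replicate 1. Of the leukocyte markers 1 of 2 tested was called lower, but 0 with DESeq2 or without DMSO replicate 2, DMSO replicate 3, RepSox replicate 1 or RepSox replicate 2. Of the endothelial markers 1 of 4 was higher (25%) and of the neuroendocrine markers 1 of 5 higher (20%), near the 19.5% called among all genes tested. DMSO and RepSox libraries were apart in the number of genes detected (25216 to 25322 in DMSO, 24887 to 25128 in RepSox) and in the share of MALAT1 and NEAT1, nuclear RNAs (0.0368% to 0.0437% against 0.0257% to 0.0276%). Mitochondrially encoded mRNA took 3.77% to 4.17% of counts in DMSO and 4% to 4.81% in RepSox. The first principal component, with 42% of the variance, separated the treatments: DMSO libraries lay at -23.17 to -20.72 and RepSox libraries at 21.39 to 22.44. In bulk RNA, a change in how many cells express a gene and a change in RNA per cell cannot be told apart.

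RepSox changed 3338 of the 17147 genes tested (19.5%) at an adjusted p below 0.05, with 1754 higher (10.2%) and 1584 lower (9.24%). These shares are the background for the SW620 list counts. Changes were small: the median fold of the called genes was 1.25, and 302 genes (1.76%) were called and changed at least 2-fold, 169 of them higher and 133 lower. The largest rises included TAGLN, an actin-binding protein, and TNC, a matrix glycoprotein, and the largest falls included EGR1, an immediate early transcription factor. The share of calls that were higher was 52.5%, against 39.5% with scaling by library totals alone, which moved the median over all genes from -0.007 to -0.041 on the log2 scale. For 34% of the genes tested, no DMSO library lay within the range of the RepSox libraries or the reverse.

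**Figure D1:**
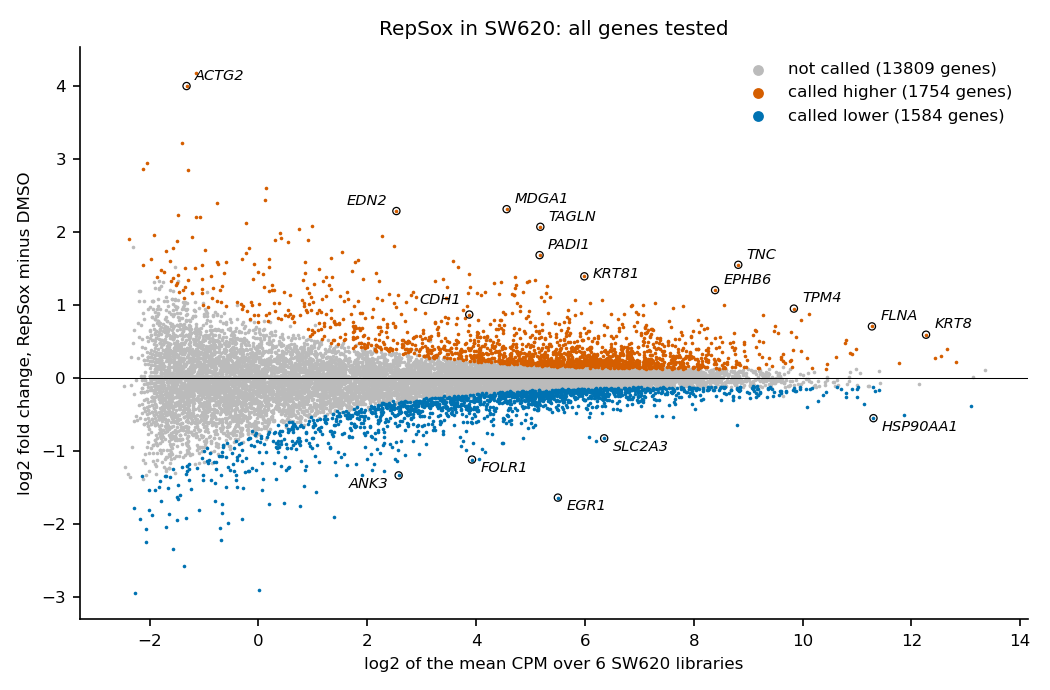
Response of SW620 to RepSox for all 17147 genes tested. The horizontal axis is the log2 mean CPM over the 6 libraries, the vertical axis is the log2 fold change of RepSox over DMSO, and points are genes. Genes called higher are orange, genes called lower blue and the rest grey. TNC is high on both axes, and FLNA is high in level with a smaller rise (log2 0.70). EGR1 lies lowest among the labelled genes of its level, and most called genes lie close to 0.

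TAGLN, which encodes the actin-binding protein transgelin (chr11:117199321-117204782, plus strand, GRCh38), stood at 16.2, 13 and 12.6 CPM in the 3 DMSO libraries and at 57.7, 57.8 and 60.3 CPM in the 3 RepSox libraries. The groups were far apart, and the spread within each was a few CPM. The mean rose from 14 ± 2.0 to 58.6 ± 1.5 CPM (SD, n = 3), a log2 fold change of 2.07 ± 0.08 (SE; edgeR adjusted p = 3.18e-15). TAGLN overlaps PCSK7 on the other strand. TNC, the gene of the matrix glycoprotein tenascin-C (chr9:115019578-115118257, minus strand), had the smallest p of all genes. TNC measured 218, 234 and 238 CPM with DMSO and 658, 683 and 679 CPM with RepSox, a rise of 2.93-fold (log2 1.55 ± 0.04, edgeR adjusted p = 2.2e-17).

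Further rises came in genes of secreted, surface and enzyme proteins. MDGA1, a glycosylphosphatidylinositol-anchored adhesion protein, went from 9.16, 8.48 and 6.13 CPM to 38.3, 38.3 and 41.4 CPM, or 4.96-fold (edgeR adjusted p = 1.63e-14). EDN2, the peptide endothelin-2, went from 2.44, 1.52 and 1.95 CPM to 9.53, 9.09 and 10.3 CPM, or 4.88-fold. PADI1, a peptidylarginine deiminase, was 18.2, 15.2 and 17.9 CPM in DMSO and 53.9, 53.8 and 56.6 CPM in RepSox. These groups were well separated in all 3 genes. EPHB6, a kinase-inactive ephrin receptor, rose at a higher level, from 204 ± 14 to 468 ± 13 CPM (2.3-fold), and so did AKAP12, a scaffold of protein kinase A (1.99-fold). The 15 largest rises among genes at 5 CPM or more also took in the WNT ligand WNT7B (2.67-fold), the chemokine CXCL3 (3-fold), the muscle Z-disc gene LDB3 (2.71-fold), the transcriptional repressor HIC1 (2.87-fold, overlapping SMG6 on the other strand), VSIG1 (2.61-fold), SPOCD1 (3.5-fold) and ANKRD22 (3.85-fold). KRT81 (2.62-fold) and its pseudogene KRT87P (3.05-fold) are near-identical hair keratin loci whose reads may have been split between copies, so each value is uncertain. KRT87P also overlaps KRT7 and KRT86 on the other strand, and KRT81 overlaps KRT86 there. The antisense RNA MIR1-1HG-AS1 (3.02-fold) is uncertain for want of a stated strand setting.

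EGR1 had the largest fall among genes at 5 CPM or more whose groups did not overlap. EGR1 (chr5:138465490-138469315, plus strand) measured 71.5, 71.2 and 63.5 CPM with DMSO and 23.8, 20.3 and 21.9 CPM with RepSox. Its mean fell from 68.7 ± 4.5 to 22 ± 1.7 CPM (SD, n = 3), 3.12-fold lower (log2 -1.64 ± 0.07, edgeR adjusted p = 1.29e-14). ANK3, the membrane-cytoskeleton adaptor ankyrin-G, came next among protein-coding genes: 8.66, 7.73 and 9.29 CPM against 3.4, 3.35 and 3.4 CPM, 2.53-fold lower. FOLR1, the folate receptor α, was 21.8, 20.9 and 19.8 CPM in DMSO and 9.9, 9.82 and 8.98 CPM in RepSox. ARG2, mitochondrial arginase, fell 2.02-fold from 24.1 ± 1.2 to 11.9 ± 0.5 CPM and overlaps VTI1B. The polarity gene CRB2 (2.42-fold), PKD1L2 (2.28-fold), METTL7A (2.17-fold), the acid sphingomyelinase SMPD1 (2.17-fold), the transcription factor DACH1 (2.16-fold), MAB21L4 (2.08-fold), the kinase SGK2 (2.07-fold) and the acetyltransferase KAT2B (2.06-fold) fell as well. At higher levels, the linker histone H1-10 fell from 95.9 ± 7.1 to 52.5 ± 2.7 CPM, SERPINB1, an inhibitor of neutrophil proteases, from 85.6 ± 0.6 to 48.9 ± 3.1 CPM, and SLC2A3, the glucose transporter GLUT3, from 105 ± 2.2 to 58.9 ± 2.1 CPM. The multicopy RNA gene RN7SL1 (log2 -1.33) lost its call with DESeq2 (adjusted p = 0.0642).

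**Figure D2:**
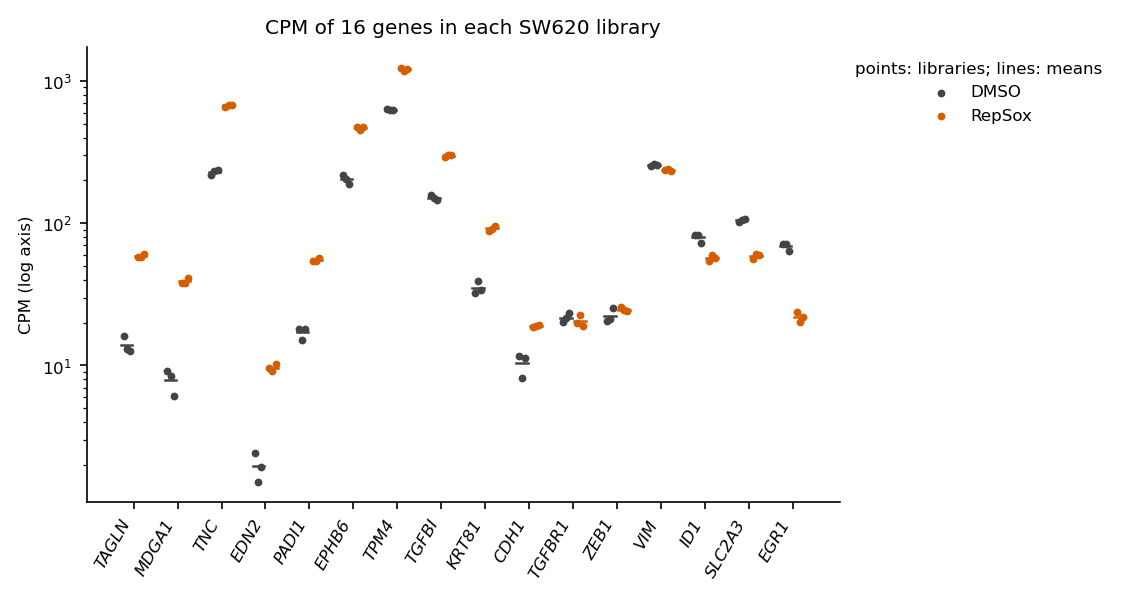
Level of 16 genes in each of the 6 SW620 libraries, in CPM on a log axis. Points are libraries, lines are group means, and the treatments are set side by side for each gene. TAGLN rises from 12.6 to 16.2 CPM up to 57.7 to 60.3 CPM and EGR1 falls from 63.5 to 71.5 CPM down to 20.3 to 23.8 CPM, while the libraries of TGFBR1 and ZEB1 overlap.

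The genes of the TGF-β pathway itself are described by role. Of 7 tested TGF-β and activin ligands, 2 were called higher and 3 lower. INHBB, an activin subunit, measured 208, 191 and 199 CPM with DMSO and 313, 303 and 317 CPM with RepSox (1.56-fold). GDF15, a stress-induced divergent member of the family, rose from 42.2, 41.3 and 35.8 CPM to 62.5, 62.6 and 65.5 CPM. TGFB1, the main TGF-β ligand, was 69.1, 67.6 and 62 CPM with DMSO and 53.3, 46.7 and 52.1 CPM with RepSox, a 1.31-fold fall with no overlap (log2 -0.39 ± 0.06, edgeR adjusted p = 3.39e-05). GDF11 (log2 -0.30) and INHBE (-0.58) fell too. Among 7 BMP ligands and antagonists only TWSG1, an extracellular BMP modulator, was called (log2 -0.26), and BMP4 was 200 CPM in DMSO and 191 CPM in RepSox. That is 14.3% called, against 19.5% of all genes tested.

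The drug's target was not changed at the RNA level beyond the spread. TGFBR1 (chr9:99104038-99154192, plus strand) read 20.2, 21.7 and 23.2 CPM with DMSO and 20, 22.5 and 19.0 CPM with RepSox, with overlapping groups (log2 -0.08 ± 0.08, edgeR adjusted p = 0.52). Of 14 tested receptors and co-receptors, 3 were called higher and 2 lower, with a median log2 change of -0.05. ACVR1, a type I BMP receptor, fell from 6.87 ± 0.58 to 4.84 ± 0.55 CPM, and BAMBI, a pseudoreceptor that dampens signalling, rose by log2 0.26. The other 3 calls depended on single libraries. TGFBR2, the type II TGF-β receptor (log2 0.18), lost its call without DMSO replicate 2 (adjusted p = 0.0932) or RepSox replicate 2 (0.105). The co-receptor TGFBR3 (log2 0.33) lost it without the same libraries (0.0912 and 0.112), and the type II BMP receptor BMPR2 (log2 -0.25) without DMSO replicate 3 (0.0619) or RepSox replicate 3 (0.0966).

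Among 18 SMADs and their regulators, 3 were called higher and 3 lower, and the inhibitory members moved in different directions. PMEPA1, a membrane protein that sequesters receptor SMADs (chr20:57648392-57711536, minus strand, overlapping NKILA), measured 63.1, 60.9 and 65.6 CPM with DMSO and 116, 118 and 115 CPM with RepSox. PMEPA1 rose 1.84-fold (log2 0.88 ± 0.05, edgeR adjusted p = 2.25e-12). SMAD6, the inhibitory SMAD best known for restraining BMP signals, rose from 65.3, 64.7 and 62.9 CPM to 105, 104 and 105 CPM (1.63-fold). Both genes had clearly separated groups. SMAD7, the inhibitory SMAD that TGF-β induces, was 6.67, 5.51 and 6.08 CPM with DMSO and 4.72, 4.37 and 5.01 CPM with RepSox. The SMAD7 groups did not overlap, but its fall (log2 -0.37 ± 0.12, edgeR adjusted p = 0.0293) lost its call without DMSO replicate 1 (adjusted p = 0.137), RepSox replicate 1 (0.0747) or RepSox replicate 2 (0.124). The co-repressor TGIF2 fell from 54 ± 1.9 to 42.9 ± 1.2 CPM. The co-repressor SKIL (log2 -0.21) and the ubiquitin ligase SMURF1 (0.18) each lost the call in 4 of the 6 settings that leave out 1 library: SKIL without DMSO replicate 3 or any 1 RepSox library, and SMURF1 without DMSO replicate 2 or any 1 RepSox library. Without RepSox replicate 1 or RepSox replicate 2, 1 gene in place of 3 was called lower in the SMAD list. SMAD2 and SMAD3 were not called (log2 -0.13 and -0.04). SMAD4 was barely detected, with 69 counts over the 3 DMSO libraries and 89 over the 3 RepSox libraries, and was not called (0.61 ± 0.25 and 0.803 ± 0.15 CPM, edgeR adjusted p = 0.461). In the 4 HT-29 iZEB1 groups the mean of SMAD4 was 11.7 to 13.9 CPM.

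Genes that TGF-β induces in other settings rose more often than they fell. Of 35 tested targets, 17 were called higher and 7 lower, and their median was 0.20 against -0.007 for all genes. TGFBI, a matrix protein named for its induction by TGF-β, measured 157, 150 and 146 CPM with DMSO and 292, 300 and 302 CPM with RepSox (log2 0.98 ± 0.04, edgeR adjusted p = 5.41e-14). Its groups did not overlap. TIMP3, an inhibitor of metalloproteases, rose from 12, 12.5 and 15.2 CPM to 29.1, 29.6 and 29.4 CPM, the protease gene ADAM19 by log2 0.53, the growth factor PDGFB by 0.79 and fibronectin, FN1, by 0.48. In the other direction, the basement membrane collagen COL4A2 fell from 8.79 ± 0.93 to 5.64 ± 1.1 CPM, and the matricellular gene CCN2 (log2 -0.68) and the haem oxygenase HMOX1 (-0.73) fell at under 5 CPM. The 7 falls became 3 without RepSox replicate 1 and 4 without RepSox replicate 2. KLF10 (log2 0.11), THBS1 (0.12) and CDKN2B (0.09) were not called.

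BMP targets divided. The ID genes encode helix-loop-helix proteins without a DNA-binding region that BMP signals induce. ID1 was 83.3, 82.8 and 72.5 CPM with DMSO and 54.1, 60 and 56.6 CPM with RepSox, a fall without overlap (log2 -0.48 ± 0.06, edgeR adjusted p = 1.37e-06). ID2 fell from 23.6 ± 0.6 to 17.2 ± 0.8 CPM, and ID3 (log2 -0.90, about 2 CPM or less) fell with a call that was lost without RepSox replicate 1 (adjusted p = 0.0669). SMAD6 and BAMBI, of the same list, rose. MSX2 was higher too (log2 0.21), but lost its call with library totals alone, with the replicate block (adjusted p = 0.0522), in the fit of all 18 libraries and without DMSO replicate 2 or any 1 RepSox library (0.0556 to 0.104). Of its 13 tested genes 3 were called higher and 4 lower, or 2 lower without RepSox replicate 1.

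**Figure D3:**
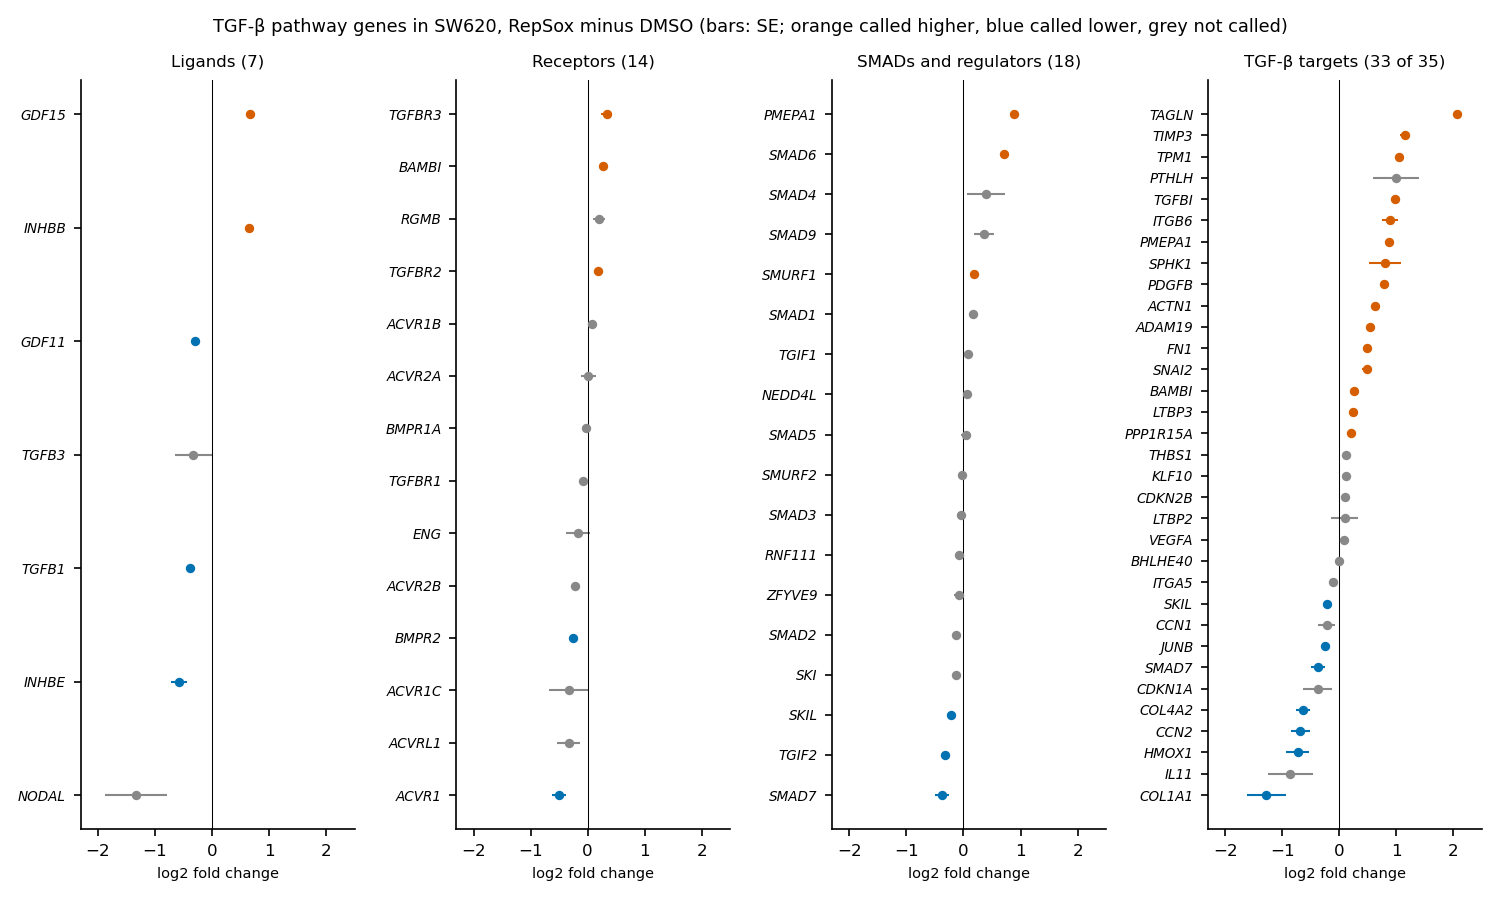
Log2 fold change of RepSox over DMSO in SW620 for TGF-β pathway genes, in panels for 7 ligands, 14 receptors, 18 SMADs and regulators and 33 of the 35 targets. Points are genes, bars are the standard error, orange is called higher, blue called lower and grey not called. PMEPA1 and SMAD6 lie highest among the SMAD regulators, TAGLN highest among the targets, and TGFBR1 lies at -0.08.

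Most tested genes of the contractile cytoskeleton were called higher. Serum response factor (SRF) drives many of them by binding the CArG box, a 10-base element with an A/T-rich core, with myocardin-related cofactors that respond to the pool of free actin. The same factor, with ternary complex factors that MAP kinases phosphorylate, drives immediate early genes such as EGR1. Of 26 tested actomyosin and SRF target genes, 19 were called higher and 1, the non-muscle myosin MYH10 (log2 -0.32), lower. The count of lower genes became 3 without DMSO replicate 3, and also 3 with library totals alone. The median was 0.46, against -0.007 over all genes, where 10.2% were called higher.

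CArG boxes were looked for in the 250 bases before the RefSeq start of each gene (GRCh38.p14), on both strands, and 11066 of the tested genes (64.5%) had a promoter in the table. A box was found in 312 of 27305 promoters of all genes (1.14%), in 110 of the 11066 of genes tested (0.994%), in 25 of 1281 promoters of genes called higher (1.95%) and in 16 of 1163 of genes called lower (1.38%). Of 22 actomyosin and SRF target promoters, 7 held one (31.8%): ACTG1, ACTG2, CNN2, FHL2, FLNA, SRF and TPM4. That list was put together from known targets of SRF, so its share is not independent of the motif. Of 17 promoters of ERK outputs, 1 held it, that of EGR1. A match is a description of the letters, not evidence of binding. The SMAD palindrome GTCTAGAC was in 48 of 27305 promoters (0.176%), in 15 of the 11066 of genes tested (0.136%), in 5 of 1281 of genes called higher and in 0 of 1163 of genes called lower. 4 promoters are shown because they hold the same element before genes that moved in opposite directions: TPM4 (chr19:16067288-16067537, plus strand), FLNA (chrX:154374635-154374884, minus strand) and ACTG2 (chr2:73892758-73893007, plus strand), which rose, and EGR1 (chr5:138465229-138465478, plus strand), which fell. Each runs 5′ to 3′ up to the base before the start, and capitals mark the CArG boxes.
TPM4: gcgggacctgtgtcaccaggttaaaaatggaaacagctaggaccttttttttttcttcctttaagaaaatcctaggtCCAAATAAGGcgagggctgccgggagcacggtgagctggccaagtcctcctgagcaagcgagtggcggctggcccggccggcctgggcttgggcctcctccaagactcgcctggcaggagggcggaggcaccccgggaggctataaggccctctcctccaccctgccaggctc
FLNA: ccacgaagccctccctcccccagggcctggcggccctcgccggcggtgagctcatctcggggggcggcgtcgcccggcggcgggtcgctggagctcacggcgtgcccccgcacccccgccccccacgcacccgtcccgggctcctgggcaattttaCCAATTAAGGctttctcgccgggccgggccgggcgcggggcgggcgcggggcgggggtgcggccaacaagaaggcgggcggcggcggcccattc
ACTG2: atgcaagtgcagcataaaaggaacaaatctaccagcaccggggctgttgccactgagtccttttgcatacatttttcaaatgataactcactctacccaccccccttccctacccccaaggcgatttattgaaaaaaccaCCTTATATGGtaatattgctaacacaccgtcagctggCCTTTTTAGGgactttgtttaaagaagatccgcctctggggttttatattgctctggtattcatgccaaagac
EGR1: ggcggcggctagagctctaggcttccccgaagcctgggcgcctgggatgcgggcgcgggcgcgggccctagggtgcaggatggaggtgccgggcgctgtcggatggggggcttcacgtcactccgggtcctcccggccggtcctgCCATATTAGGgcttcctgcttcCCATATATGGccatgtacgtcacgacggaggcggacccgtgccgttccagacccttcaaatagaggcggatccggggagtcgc
The box lies 173 to 164 bases before the RefSeq start of TPM4, and 94 to 85 bases before that of FLNA. ACTG2 has a pair of boxes, at 110 to 101 and 73 to 64 bases, and EGR1 has a pair at 105 to 96 and 83 to 74 bases. The GENCODE gene of TPM4 starts upstream of its RefSeq start, so that promoter and its box lie inside the TPM4 coordinates given with its levels.

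TPM4, a tropomyosin that lies along actin filaments (chr19:16067021-16103005, plus strand), measured 630, 625 and 623 CPM with DMSO and 1239, 1181 and 1204 CPM with RepSox. TPM4 was thus nearly uniform within each group, and the mean rose from 626 ± 3.6 to 1208 ± 29 CPM (log2 0.95 ± 0.04, edgeR adjusted p = 1.75e-14). FLNA, the actin crosslinker filamin A, rose from 1895, 1906 and 1852 CPM to 3038, 3110 and 3063 CPM (1.63-fold). ACTG2, smooth muscle γ-actin, had 5 counts over the 3 DMSO libraries and 84 over the 3 RepSox libraries, or 0.0442 and 0.757 CPM. With so few DMSO counts, its fitted change (log2 4 ± 0.53) depends on the prior count and is no bound. The tropomyosin TPM1 rose from 26.5, 23.4 and 24.9 CPM to 51.6, 50.5 and 52.5 CPM, and MYL9, a regulatory myosin light chain, from 36.6, 38.3 and 34.3 CPM to 75.3, 71.6 and 81.5 CPM. Neither overlapped between groups. Focal adhesion and crosslinking proteins followed at a smaller size: VCL, vinculin (1.56-fold), ZYX, zyxin (1.62-fold), ACTN1, an α-actinin (1.55-fold), MYH9, non-muscle myosin IIA (1.48-fold), and FHL2, a LIM-domain cofactor (1.4-fold). SRF itself measured 77.6, 76.2 and 76.1 CPM with DMSO and 101, 102 and 104 CPM with RepSox (log2 0.42, edgeR adjusted p = 3.42e-07). ACTG1, whose promoter has a CArG box, was not called (log2 -0.09).

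Integrins and laminins are the receptors and ligands that hold epithelial cells to the basement membrane. Of 18 tested, 13 were called higher and 2 lower, with a median of 0.43. LAMA3, a laminin α chain, measured 31.2, 31.8 and 33.8 CPM with DMSO and 49.3, 48.6 and 49.9 CPM with RepSox (log2 0.61, edgeR adjusted p = 2.06e-08), and LAMB3, a β chain, rose by log2 0.31. ITGB4, the integrin β4 of hemidesmosomes, rose from 583, 576 and 510 CPM to 882, 874 and 849 CPM. The collagen receptor subunit ITGA2 rose from 25, 25.6 and 33.3 CPM to 51.9, 56 and 48 CPM, and ITGA6, the partner of ITGB4, by log2 0.49. The groups of LAMA3, ITGB4 and ITGA2 did not overlap. The 2 falls were ITGA3 (log2 -0.23) and LAMB2 (-0.23), the latter lost without DMSO replicate 1 (adjusted p = 0.0515) or RepSox replicate 3 (0.0558), so that 1 fall was left in each case. COL6A1, a chain of collagen VI, rose from 133 ± 4.8 to 260 ± 9.7 CPM (1.95-fold).

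Simple-epithelial keratins rose, and so did some mesenchymal genes. KRT8, the keratin of simple epithelia, measured 4130, 3841 and 3850 CPM with DMSO and 5888, 5789 and 6119 CPM with RepSox. KRT19 rose from 757, 780 and 679 CPM to 1248, 1260 and 1324 CPM (1.73-fold), KRT7 2.51-fold, KRT80 by log2 0.79 and KRT18, the partner of KRT8, by 0.47. KRT7 overlaps KRT86 on the same strand and KRT87P on the other. CDH1, which encodes E-cadherin (chr16:68737225-68835548, plus strand), was 11.7, 8.18 and 11.3 CPM with DMSO and 18.7, 18.9 and 19.3 CPM with RepSox, with no overlap (log2 0.87 ± 0.10, edgeR adjusted p = 4.9e-07). Claudins went both ways: CLDN3 fell from 11.1 ± 1.2 to 7.35 ± 0.69 CPM, and CLDN1 rose from 153 ± 8.9 to 216 ± 4.9 CPM. CLDN4 was not called (log2 -0.07). The mucin MUC1 fell from 12.9 ± 0.5 to 9.06 ± 0.32 CPM. In all, 12 of 43 tested epithelial genes were called higher and 7 lower, with a median of -0.03. The 7 became 3 without DMSO replicate 1 or without RepSox replicate 1.

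Mesenchymal genes were called higher for 11 of 26 and lower for 3, with a median of 0.21. The 4 largest rises of that list were TAGLN, TNC, MYL9 and COL6A1, which are also in the contractile and matrix groups above. The galectin LGALS1 (log2 -0.31), EMP3 (-0.27) and COL1A1 (at 1.04 CPM in DMSO) fell. VIM, vimentin, measured 250, 259 and 255 CPM with DMSO and 236, 242 and 234 CPM with RepSox, and was not called (log2 -0.10, edgeR adjusted p = 0.0899), though it was with library totals alone (-0.14, 0.0229). ZEB1, the repressor of CDH1 in EMT, had overlapping groups (20.5, 21.2 and 25.6 against 25.7, 24.4 and 24.1 CPM) and was not called (log2 0.14, adjusted p = 0.234), though without DMSO replicate 3 it was (0.24, 0.011). Of the 5 tested EMT transcription factors, ETS1 (106 ± 6.4 to 170 ± 3.4 CPM) and SNAI2 (13.1 ± 0.4 to 18.2 ± 1.1 CPM) rose.

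Intestinal genes went both ways, with 8 of 27 called higher and 6 lower. The transcription factor KLF5 rose from 165 ± 5.1 to 239 ± 9.2 CPM, and the microvillus protein gene VIL1 by log2 0.30. CEACAM1, a cell adhesion molecule, fell from 23.2, 22.9 and 23.2 CPM to 13, 13.7 and 14 CPM, and CDHR2, a microvillus cadherin, from 10.6 ± 0.2 to 6.36 ± 0.75 CPM. CEACAM5, CEACAM6, ALPI, ALPG and MUC2 were all below 2 CPM, and the CEACAM and ALP pairs are close paralogs. DESeq2 called 4 genes higher in place of 8, and 3 in place of 6 were lower without DMSO replicate 2.

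Of 25 genes known as outputs of ERK signalling, 9 were called higher, 4 lower (EGR1, FOS, JUNB and ETV4) and 12 were not called. DUSP4, a nuclear MAP kinase phosphatase, measured 93.5, 90 and 93.5 CPM with DMSO and 159, 155 and 156 CPM with RepSox. DUSP5 rose from 23.7 ± 2.1 to 40.3 ± 4.3 CPM, the feedback inhibitor SPRY2 by log2 0.52 and DUSP6 by 0.45. FOSL1 rose from 145 ± 11 to 236 ± 6.5 CPM, JUN by log2 0.49 and the cyclin CCND1 by 0.42, against a fall of FOS from 6.73 ± 0.76 to 4.67 ± 0.58 CPM. AP-1 members of the list thus went both ways. The 4 falls became 2 without DMSO replicate 1, DMSO replicate 2, RepSox replicate 2 or RepSox replicate 3. JUNB (log2 -0.24) and ETV4 (-0.14) each lost their call in at least 1 of these settings, while the fall of EGR1 held in all.

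Of 11 tested Notch pathway genes, 7 were called higher, 1 lower and 3 were not called. JAG1, a Notch ligand (chr20:10637684-10673999, minus strand), measured 89.9, 89.8 and 88.5 CPM with DMSO and 162, 168 and 161 CPM with RepSox (log2 0.87, edgeR adjusted p = 7.67e-13). HES1, a repressor that Notch induces, rose from 14.6, 16.5 and 16 CPM to 28.7, 29.3 and 29.6 CPM. The groups of both genes were separate. HES4 (log2 0.56), NRARP (0.44), the ligand DLL4 (0.42), the receptor NOTCH1 (0.31) and LFNG (0.27) were higher too. HEYL (log2 -0.44) was the only member called lower and was not called with DESeq2 or without DMSO replicate 2 or RepSox replicate 3, and 2 members were called lower without DMSO replicate 3.

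The WNT and stem cell list split, with 11 of 23 called higher and 9 lower. NKD1, a WNT feedback inhibitor, fell from 4347, 4363 and 4495 CPM to 3111, 3150 and 3020 CPM (1.42-fold), and AXIN2, another, from 282 ± 4.6 to 220 ± 5.7 CPM. TNFRSF19 (1.82-fold) and LEF1 (log2 -0.78) fell too. The secreted inhibitor DKK1 rose from 9.56, 8.5 and 8.5 CPM to 18.7, 21.5 and 19.5 CPM, and PROM1, the CD133 gene, from 27.8 ± 0.7 to 46.2 ± 1.2 CPM. The 11 rises became 7 without RepSox replicate 1 and 6 when all 18 libraries shared 1 fit.

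Of 16 NF-κB and cytokine genes, 7 were called higher and 1 lower. CXCL3 was 1.59, 2.03 and 1.5 CPM with DMSO and 5.21, 4.75 and 5.42 CPM with RepSox, CXCL1 rose 2.51-fold and CXCL8 2.18-fold, all neutrophil-attracting ligands. The NF-κB subunit RELB (log2 0.62) and the NF-κB inhibitor TNFAIP3 (0.63) rose and NFKB1 (-0.25) fell.

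Several groups shifted downward by small amounts. Of 26 tested interferon-stimulated genes, 14 were called lower. In the other direction edgeR and DESeq2 called 0, and 0 had an unadjusted edgeR p below 0.05. The median was -0.26. IRF7, the master regulator of type I interferon induction, went from 5.07, 5.05 and 4.6 CPM to 3.16, 2.33 and 3.04 CPM, and IFI35, IFIT3 and PARP9 fell by log2 -0.48, -0.42 and -0.43. Their levels were low, and in the fit of all 18 libraries 2 of the list were called. NRF2 targets, the antioxidant and detoxification genes, were called lower for 14 of 23 and higher for 1. The ferritin light chain FTL fell from 548, 597 and 484 CPM to 342, 348 and 348 CPM, the aldo-keto reductase AKR1C3 from 37.4 ± 1.7 to 21.2 ± 1.3 CPM, and OSGIN1 2.04-fold. SLC7A11, the cystine transporter, was the exception and rose from 23.8, 24.8 and 29.6 CPM to 58.5, 56.6 and 53.4 CPM. The 14 became 9 without RepSox replicate 2 and 9 in the fit of all 18 libraries.

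The aryl hydrocarbon receptor is a sensor of planar aromatic compounds, and a list of the receptor, its partners and its targets was called lower for 6 of 12 and higher for 3. ARNT, the receptor's partner, is among the 6 (log2 -0.30). CYP1A1, its best-known target, was 1.43, 1.68 and 1.95 CPM with DMSO and 0.648, 0.751 and 0.849 CPM with RepSox (log2 -1.17 ± 0.24, edgeR adjusted p = 0.001). ALDH3A1 fell from 24.2 ± 2.9 to 15.4 ± 1.4 CPM, and AHRR, the receptor's repressor, from 76.6 ± 4.4 to 60.3 ± 0.9 CPM. AHRR overlaps the protein-coding gene PDCD6 on the same strand, so its value is less certain. Heat shock genes were called lower for 7 of 13 and higher for 0 by edgeR (0 at an unadjusted p below 0.05) and by DESeq2. HSP90AA1, the inducible HSP90 chaperone, fell from 2956, 2958 and 3103 CPM to 1972, 1982 and 2189 CPM (1.47-fold), and HSPA1A from 29.9 ± 1.3 to 22.3 ± 1.7 CPM. Its close paralog HSPA1B, also in the list, fell from 21 ± 1.2 to 14.4 ± 1.1 CPM. Reads may have been split between these copies, so the calls of HSPA1A and HSPA1B may not be separate. Without DMSO replicate 3, 1 heat shock gene was called higher.

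Hypoxia and glycolysis genes were called lower for 11 of 29 and higher for 1, with a median of -0.11. SLC2A3 led the list, the mitophagy receptor BNIP3L fell from 23.8 ± 2.7 to 16 ± 2.5 CPM, and LDHA, lactate dehydrogenase A, fell by log2 -0.21. The count of 11 became 6 without DMSO replicate 1, DMSO replicate 2 or RepSox replicate 2, and 5 in the fit of all 18 libraries. The single rise, PFKFB3, was not called with library totals alone, with no filter on low counts, with the replicate block, in the fit of all 18 libraries, or without DMSO replicate 1, DMSO replicate 2, RepSox replicate 1 or RepSox replicate 2, and 2 genes were called higher without DMSO replicate 3.

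Cytosolic ribosomal protein genes were called lower for 15 of 41, with a median of -0.11. RPL10 fell the most, from 1428, 1396 and 1299 CPM to 1084, 1146 and 1086 CPM. That count ranged from 8 without RepSox replicate 1 and 9 without DMSO replicate 1 to 26 without DMSO replicate 3, was 26 with library totals alone, and was 5 in the fit of all 18 libraries. Mitochondrially encoded genes were called higher for 12 of 13, with a median of 0.29. MT-ND4 measured 5043, 6220 and 5331 CPM with DMSO and 8007, 6360 and 7484 CPM with RepSox, so that RepSox replicate 2 lay next to DMSO replicate 2. These genes took 4% of all counts in RepSox replicate 2, against 4.17% in DMSO replicate 2, with 4.81% and 4.8% in RepSox replicates 1 and 3, and the part of this share in the result was not tested. DESeq2 called 6, 7 were called without RepSox replicate 3, 9 with library totals alone and 1 in the fit of all 18 libraries.

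Other genes with changes at moderate levels came from mixed pathways. Of 25 sterol synthesis genes, 7 were called lower (4 in the fit of all 18 libraries), among them TM7SF2 (log2 -0.58), which overlaps VPS51 on the same strand. The autophagy gene WIPI1 rose 2.24-fold in a lysosome and autophagy list where 8 of 26 fell, 5 without RepSox replicate 1. Of 25 tested p53 targets, 5 were called higher and 3 lower, with a median of -0.08. The 3 became 1 without RepSox replicate 1. Among the 5, PMAIP1, the pro-apoptotic p53 target NOXA, rose from 20.5, 21.4 and 23.3 CPM to 41.6, 41.2 and 40 CPM, and GADD45A 1.53-fold. Among the 3, CCNG1 fell by log2 -0.23. Of 31 genes of ATF4 and amino acid stress, 7 were called higher, led by SLC7A11 and the glycine transporter SLC6A9 (log2 0.93), and 1 lower, ATF5 (-0.32), or 0 lower without RepSox replicate 1. That is 25.8% called, against 19.5% of all genes tested, and the 7 became 4 with library totals alone and 3 in the fit of all 18 libraries. YAP/TAZ targets were called higher for 6 of 18 and lower for 3, with MYOF at log2 0.48 and ARHGEF17 at -0.90. CDKN2C, the CDK inhibitor p18, fell from 17.6 ± 1.3 to 10.6 ± 0.4 CPM. Replication genes were called higher for 5 of 40 and lower for 3, and mitotic genes higher for 2 of 35 and lower for 8. That is 20% of the replication genes and 28.6% of the mitotic genes, against 19.5% of all genes tested. The mitotic count of 8 became 5 without DMSO replicate 2, RepSox replicate 1 or RepSox replicate 3. The replication counts ranged over the settings that leave out 1 library from 1 to 9 higher (9 without DMSO replicate 3) and from 0 to 5 lower (0 without RepSox replicate 1), and were 1 and 6 with library totals alone.

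**Figure D4:**
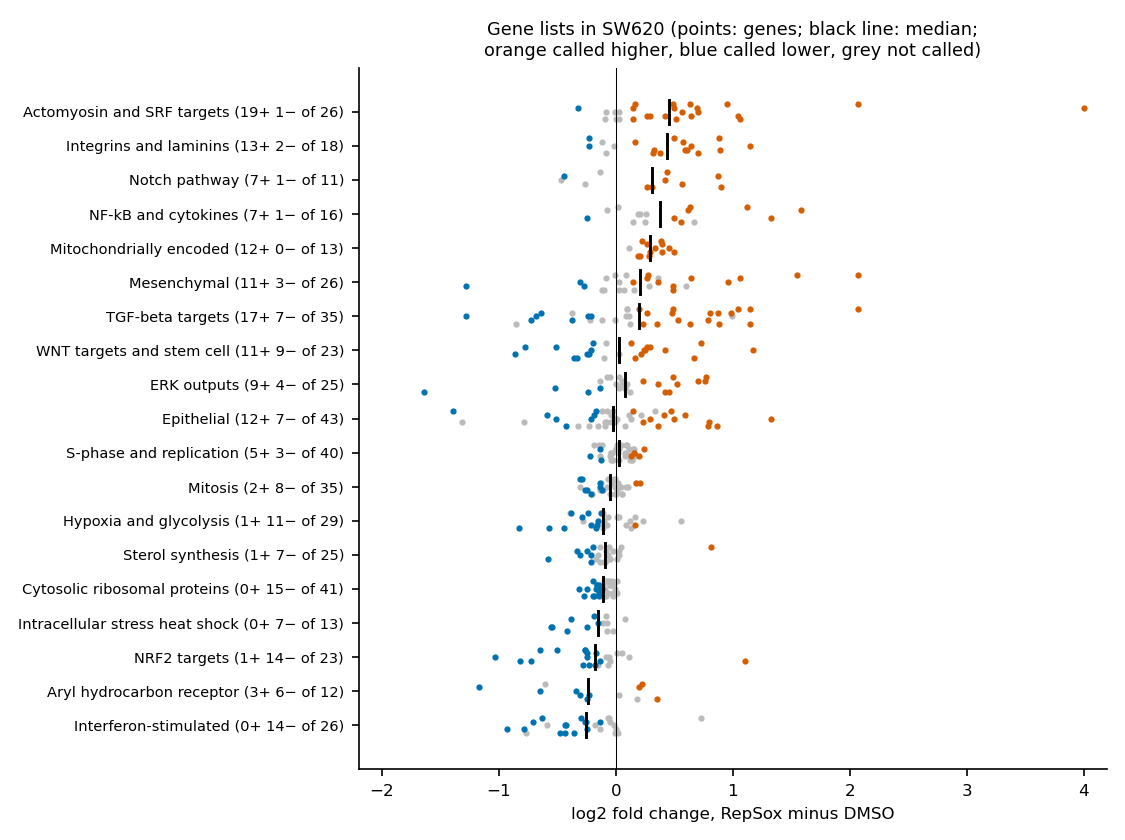
Log2 fold change of RepSox over DMSO in SW620 for the members of 19 of the 42 gene lists. Points are genes, black lines are list medians, and the labels give the number called higher and lower. The contractile, integrin and Notch lists lie mostly above 0 and the interferon list mostly below, while the epithelial list is centred near 0.

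The SW620 response was set against that of HT-29 iZEB1 in 1 fit of all 18 libraries (19107 genes), in which the difference between the responses was tested. The response differed between SW620 and HT-29 iZEB1 without DOX for 1982 genes (10.4%), 1029 more positive in SW620 (5.39%) and 953 more negative (4.99%). Against HT-29 iZEB1 with DOX it differed for 6199 genes (32.4%). Within HT-29 iZEB1, RepSox changed 4799 genes without DOX (25.1%) and 9338 with DOX (48.9%). For shared calls, the SW620 calls were those of the fit of its 6 libraries, and the HT-29 iZEB1 calls those of the fit of 18. Of all 19107 genes, 13% were called higher and 12.1% lower in HT-29 iZEB1 without DOX. Of the 1754 genes called higher in SW620, 501 (28.6%, and 20.2% of those higher in HT-29 iZEB1) were also higher without DOX and 261 (14.9%) were lower. Of the 1584 called lower in SW620, 592 (37.4%, and 25.6% of those lower in HT-29 iZEB1) were lower and 108 (6.82%) higher. Across the 19107 genes, Pearson's r between the SW620 response and that of HT-29 iZEB1 was 0.09 without DOX and 0.12 with DOX, and Spearman's rho was 0.17 and 0.19, as a description of genes that share libraries within each line. Of these genes, 12146 without DOX and 12273 with DOX had at least 1 CPM in a group of each line. The rest were lower in at least 1 line, where fold changes rest on few counts. The correlation over the expressed genes alone was not computed.

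The difference between the responses of SW620 and HT-29 iZEB1 was tested gene by gene, and several contractile genes responded more positively in SW620. TAGLN changed by log2 2.07 in SW620 and by -0.57 in HT-29 iZEB1 without DOX, a difference of 2.63 ± 0.19 (SE, edgeR adjusted p = 6.64e-10), and the difference from the response with DOX was 3.27. TPM4 (0.95 against -0.39, difference 1.34, adjusted p = 2.19e-11), TPM1 (1.05 against -0.26, difference 1.31) and FLNA (0.70 against 0.14, difference 0.57, adjusted p = 0.000193) went the same way. Of 26 actomyosin genes in this fit, 16 were called higher and 1 lower in SW620, against 2 higher and 6 lower in HT-29 iZEB1 without DOX. The difference was called above 0 for 13 and below 0 for 1. It was not called for SRF, which changed by 0.42 and 0.44 (adjusted p = 0.966), or for MYL9 (difference 0.66 ± 0.35, adjusted p = 0.265).

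ITGB4 changed by log2 0.64 in SW620 and by -0.57 in HT-29 iZEB1 without DOX, a difference of 1.22 ± 0.10 (adjusted p = 5.61e-09). ITGA2 differed as well (1.23), and of 18 integrin and laminin genes the difference was called above 0 for 13 and below 0 for 0 (edgeR, with 0 at an unadjusted p below 0.05, and 0 by DESeq2). TGFBI rose by 0.98 in SW620 and changed by -0.28 in HT-29 iZEB1 without DOX (difference 1.26, adjusted p = 2.07e-09). Of 36 TGF-β targets in this fit, 15 were higher and 5 lower in SW620, and 4 higher and 19 lower in HT-29 iZEB1 without DOX, with 15 differences above 0 and 0 below (edgeR, with 1 at an unadjusted p below 0.05, and 0 by DESeq2). CDH1 rose in SW620 (0.87) and fell in HT-29 iZEB1 without DOX (-0.29), a difference of 1.15 ± 0.11 (adjusted p = 5.09e-08). Of 54 epithelial genes in this fit, 13 were higher and 6 lower in SW620, and 3 higher and 27 lower in HT-29 iZEB1 without DOX. That gave 16 differences above 0 and 4 below. The response with DOX went the other way, with 41 higher and 5 lower in HT-29 iZEB1. Against it, 5 differences were above 0 and 34 below.

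Other genes moved in the same direction in both lines. Where the difference was not called, equal responses are not shown. EGR1 fell by log2 -1.64 in SW620, -1.88 in HT-29 iZEB1 without DOX and -1.65 with DOX, and the difference without DOX, 0.24 ± 0.13, was not called (adjusted p = 0.262). SMAD7 fell by -0.37 and -0.49, and that difference was not called either (0.11 ± 0.15, adjusted p = 0.714). ID1 fell less in SW620 (-0.48 against -1.34, difference 0.85, adjusted p = 2.91e-05). PADI1 rose in both (1.68 against 0.94, difference 0.74, adjusted p = 3.7e-05), and so did PMEPA1 (0.88 against 0.51, difference 0.37, adjusted p = 0.00291).

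In the other direction, ribosome biogenesis genes rose more in HT-29 iZEB1. Of 25, 5 were higher in SW620 and 23 in HT-29 iZEB1 without DOX, with 17 differences below 0. Above 0, edgeR and DESeq2 called 0, and 0 had an unadjusted p below 0.05, for these genes and for the ribosomal protein genes that follow. NOLC1, a nucleolar protein, changed by 0.28 in SW620 and 0.52 in HT-29 iZEB1 without DOX, a difference of -0.24 (adjusted p = 0.033) that was lost without DMSO replicate 1 or 3 or RepSox replicate 2 or 3 of HT-29 iZEB1 and without DMSO replicate 2 or 3 or any 1 RepSox library of SW620. Against the response with DOX its difference was -1.27. Cytosolic ribosomal protein genes were higher for 23 of 41 in HT-29 iZEB1 without DOX and lower for 5 in SW620, with 21 differences below 0 and 0 above it. ARG2 fell in SW620 (-1.02) and rose in HT-29 iZEB1 without DOX (1.56), a difference of -2.58 ± 0.16.

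**Figure D5:**
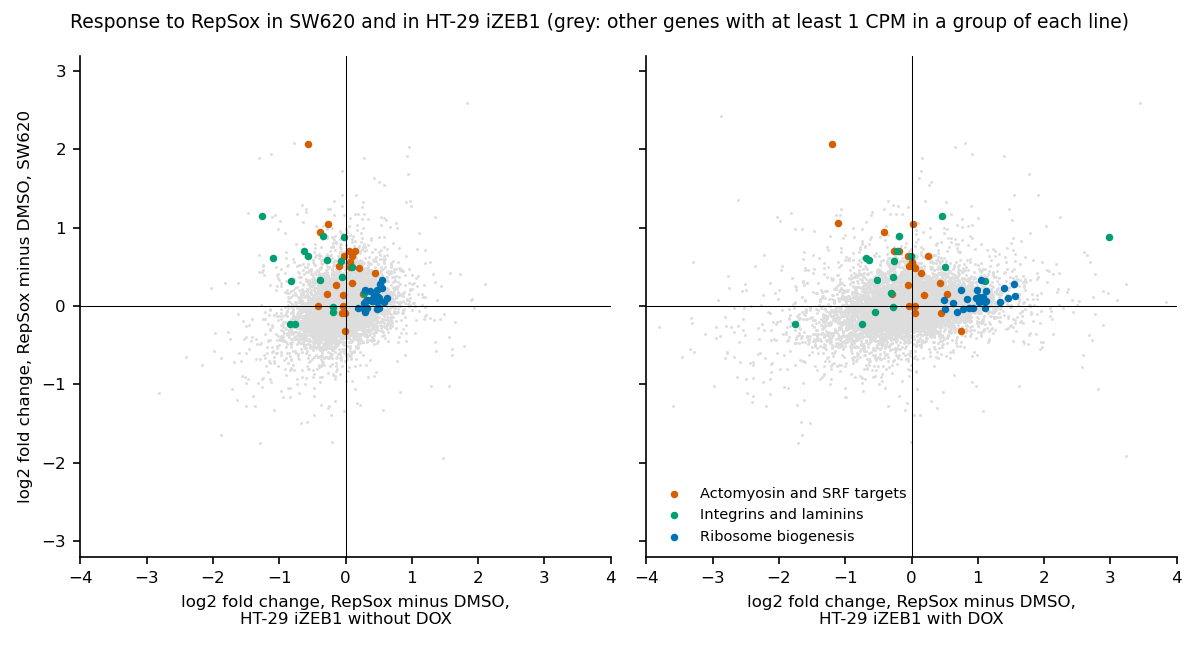
Log2 response to RepSox in SW620 (vertical axis) against that in HT-29 iZEB1 (horizontal axis), without DOX in the left panel (12146 genes) and with DOX in the right panel (12273 genes), for genes at 1 CPM or more in a group of each line. Actomyosin, integrin and laminin, and ribosome biogenesis genes are coloured, and 1 and 5 genes lie outside the axes. Most actomyosin and integrin genes sit above 0 on the SW620 axis and, in the left panel, near or below 0 on the HT-29 iZEB1 axis, and the ribosome biogenesis genes lie to the right of 0.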

How the data were processed

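Per the labels' protocols, RNA was extracted with a DNase step and purified mRNA was sequenced on a BGISEQ-500. The authors deposited whole-number counts of reads per gene symbol, not normalised. The submitters' processing notes name HISAT2 2.2.0 and featureCounts 2.0.0, with FastQC 0.11.9, DESeq2 1.34.0 and the build GRCh38.p13. Not given in the sources used here are the settings, strand and annotation release, so reads of overlapping genes on opposite strands cannot be told apart.

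The 6 SW620 libraries were tested on their own with edgeR 4.0.16 (R 4.3.3): the quasi-likelihood test (glmQLFTest) after TMM scaling and filterByExpr at a minimum count of 10. The p-values of 17147 genes were adjusted by Benjamini-Hochberg, and called means an adjusted p below 0.05. All adjusted p-values are from this fit or, for the comparison of lines, from 1 fit of 18 libraries (19107 genes), unless another tool is named. A standard error is the unshrunken log2 fold change, without sign, over the square root of F. The typical spread between SW620 replicates was 5.1% of a gene's level (biological coefficient of variation), and the replicates exceeded sampling noise, with a chi-square of at least 3.93 per degree of freedom. The test was run on simulated counts first.

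Named genes are anchors of the pathway (ZEB1, CDH1, VIM, TGFBR1, SMAD7, ID1 and CYP1A1, with 1 more not reported here), the 15 top called genes in each direction at 5 CPM or more without overlap, the 6 with the smallest p in each direction, up to 4 called members of each of 42 lists in each direction at 5 CPM or more, and, for the differences between lines, the 8 largest in each direction. Other genes, among them SMAD4, TGFBI, FN1, FLNA, SRF, LAMA3, CXCL1, CXCL8, IRF7, ID3 and ACTG2, were named after their values were seen. Members and lists were chosen with earlier results of these data known, and lists share genes, so they are described by counts and medians without a test of the list. Alternatives were DESeq2 1.42.0, scaling by library totals, no filter, a minimum count of 50, all 18 libraries in 1 fit, the replicate block and leaving out each library. Gene coordinates are from GENCODE 29, matched by symbol, and promoter sequences from RefSeq GRCh38.p14.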

Additional observations from a re-analysis of the deposited data

Results flagged for a closer look

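Some genes were called in both lines in opposite directions, with the difference between the responses also called and at least 1 CPM in both lines. The differences below are log2 responses to RepSox in SW620 minus those in HT-29 iZEB1. Without DOX, the contractile and adhesion genes TAGLN (2.63), TPM4 (1.34), TPM1 (1.31), ITGA2 (1.23) and ITGB4 (1.22), the TGF-β target TGFBI (1.26), and ANKRD22 (3.08), DKK1 (2.23), EPHB6 (1.81) and CDH1 (1.15) rose in SW620 and fell in HT-29 iZEB1, and ARG2 (-2.58) did the reverse.

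With DOX, TAGLN (3.27), TPM4 (1.36), FLNA (0.98), TGFBI (1.72), DKK1 (2.24), EPHB6 (1.79), JAG1 (1.91), AKAP12 (1.88) and DUSP4 (0.91) rose in SW620 and fell in HT-29 iZEB1. ARG2 (-2.64), ANK3 (-2.42) and MAB21L4 (-3.86) fell in SW620 and rose in HT-29 iZEB1 with DOX.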

How the results depend on the processing

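The count of genes called for RepSox in SW620 was 3338 and stayed within 1.5 times of it under every alternative run except the fit of all 18 libraries, which called 2019, of which 1956 were shared (58.6% of the 3338). The cause was not tested. It was 3134 with DESeq2 and ranged from 2359 (without RepSox replicate 2) to 4043 (without DMSO replicate 3) with 1 library left out. No call shared with an alternative changed direction. Of the 227 named genes, 41 lost their call in the fit of 18 libraries, 9 with library totals alone and 6 to 32 with 1 library left out. Differences between the lines numbered 1521 to 1844 without DOX and 5461 to 6344 with DOX when 1 library was left out. RepSox calls in HT-29 iZEB1 then numbered 3761 to 4159 and 8401 to 9060.

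The labels number the replicates of each group. Deviations from the group means of same-numbered SW620 libraries correlated at -0.0555 to 0.00834, and not every library correlated best with its own number. No pairing by number was thus seen in these values, and the labels do not say whether the numbers mark a shared culture or day. With a replicate block the counts were 2848 for SW620, 1855 and 5992 for the differences between lines without and with DOX, and 4647 and 9104 for HT-29 iZEB1.

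With 3 libraries per group, changes of a few percent and genes near 1 CPM are at the limit of what these libraries resolve, and RepSox effects of 24 h at 1 dose say nothing of other times or doses.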
